A study of Mus musculus with 48 samples.

Results

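Cxcl9-high and Cxcl9-low tumours were compared within one outcome group, the Renca mice that did not respond to checkpoint antibodies. The table of counts covers 48 tumours in all, and 12 of them are Renca non-responders. The level of the chemokine gene Cxcl9 in CPM (counts divided by the library total and multiplied by 1000000) ranked those 12 tumours, so the members were chosen by a measured value. The 6 highest formed the Cxcl9-high side (replicates 3, 5, 7, 8, 11 and 12) and the 6 lowest the Cxcl9-low side (replicates 1, 2, 4, 6, 9 and 10). Just inside the high side stood replicate 8 with 116.9 CPM of Cxcl9, and just outside it replicate 9 with 108.9 CPM, so the sides meet without a gap. Replicate 3 held 656 CPM, far above the next tumour, replicate 5, with 199.8 CPM. Cxcl9 chose the sides and is not described further.

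Both sides are untreated whole tumours of one model. Cells of Renca, a mouse kidney cancer line, were injected under the skin of female BALB/c mice aged 8 to 9 weeks, and the tumour was removed on day 10, before anti-CTLA4 plus anti-PDL-1 was given. The mouse was later classed as a non-responder, and each library is a separate mouse. The 12 Renca responders, the same model with the other outcome, are the outside group here, and the 12 AB1 non-responders (a mesothelioma line, removed on day 8) serve for one further split. The tumour is a transplanted cell line in a healthy host, and RNA of tumour cells, infiltrating cells and neighbouring tissue was sequenced together. Fewer cells of a type and less RNA per cell cannot be told apart in such samples.

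CXCL9 belongs with CXCL10 and CXCL11 to the chemokines that interferon gamma induces through IRF1 and other factors, mainly in macrophages, dendritic cells and tumour cells. All of them bind CXCR3, the receptor that activated T cells and NK cells carry into inflamed tissue. The same interferon signal raises guanylate-binding proteins, immunity-related GTPases and the MHC class I and class II machinery, and T cells and NK cells are its main sources.

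No library measure passed a test of difference between the 2 sides. Totals averaged 20.0 ± 1.26 M counts on the high side and 21.5 ± 2.82 M on the low side (SD, n = 6 each; M, mega). Totals, both RNA purity ratios in the labels and the share of the 10 most abundant genes gave exact permutation p-values of 0.427, 0.427, 0.427 and 0.6 after adjustment over these 4 measures (two-sided). Of the high side, 2 tumours ran on the first flow cell and 4 on the second, and of the low side 4 and 2 (Fisher's exact test, p = 0.567). The renal lineage was present in every tumour. Pax8, a kidney transcription factor, had 44.4, 47.8 and 61 CPM (lowest, median and highest) in Cxcl9-high tumours, against 50.9, 57.9 and 67.6 CPM in Cxcl9-low tumours, and was at most 0.0894 CPM in AB1 tumours. Cdh16, the kidney cadherin, had 222, 259.9 and 299 CPM (lowest, median and highest) in Cxcl9-high tumours, against 242, 292 and 353 CPM in Cxcl9-low tumours.

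No single gene passed the test between the sides. Each gene was tested by edgeR's quasi-likelihood F test with the flow cell as a term, and log2 fold changes are Cxcl9-high minus Cxcl9-low throughout this comparison. Because the tumours were ranked on a measured gene, a p-value here says how closely a gene goes with the Cxcl9 order over these 12 mice. Of 15439 genes, 0 had an adjusted p under 0.05 (0%), and the smallest was 0.0516. At an unadjusted p under 0.05 stood 3080 genes (19.9%), 1655 higher (10.7%) and 1425 lower (9.23%). DESeq2 called 850 genes (5.51%), 586 higher and 264 lower. Leaving out replicate 8 or replicate 9, the tumours either side of the boundary, gave 105 and 209 called genes by edgeR, leaving out replicate 2 gave 1, and leaving out any one of the other 9, replicate 3 included, gave 0. The fit of a straight line on log2 CPM of Cxcl9, in place of the 2 sides, called 1262 genes (8.17%), 848 higher (5.49%) and 414 lower (2.68%), and 231 (1.49%) without replicate 3. The median log2 fold change of all genes was -0.00532. The sides did not overlap, with all 6 high tumours above all 6 low ones, in 201 genes (1.3%), and lay the other way in 138 genes (0.894%). Since no gene passed, the values below describe levels and differences, with the number of tumours behind them.

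The partner chemokines and their receptor had higher levels on the Cxcl9-high side, and the ligands far more in replicate 3 than elsewhere. Cxcl10, which attracts CXCR3-bearing lymphocytes, had 21.7, 26.2 and 116 CPM in Cxcl9-high tumours, against 11.4, 18.4 and 27.9 CPM in Cxcl9-low tumours (lowest, median and highest of 6). Replicate 3 gave the highest value, and the next tumour of its side had 33.8 CPM, so most of the sides overlapped. The log2 fold change of Cxcl10 was 1.27 ± 0.37 with replicate 3 and 0.60 without it (SE; adjusted p = 0.0934). Cxcl11, the ligand of highest affinity for CXCR3, had 3.24, 5.61 and 31.8 CPM in Cxcl9-high tumours, against 1.94, 3.67 and 4.63 CPM in Cxcl9-low tumours, again with replicate 3 on top. For Cxcr3 itself the values were 11.5, 15.8 and 21.8 CPM in Cxcl9-high tumours, against 7.08, 10.2 and 12.5 CPM in Cxcl9-low tumours, and here replicate 3 was within the range of its side. Its log2 fold change was 0.69 ± 0.19, and 0.54 without replicate 3.

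Other lymphocyte attractants had smaller and mixed differences, with 8 of 17 genes at an unadjusted p under 0.05 higher and 1 lower, and a median of 0.30. Ccl5, made by T cells and NK cells, had 33.2, 40.6 and 92.4 CPM in Cxcl9-high tumours, against 19.1, 26.4 and 32.1 CPM in Cxcl9-low tumours, with no overlap between the sides. Xcl1, the NK and CD8 T cell chemokine for XCR1-bearing dendritic cells, had 3.22, 5.08 and 7.15 CPM in Cxcl9-high tumours, against 0.968, 2.24 and 4.63 CPM in Cxcl9-low tumours, a log2 fold change of 1.14 ± 0.32 (adjusted p = 0.0866). Ccl3, a macrophage inflammatory protein, had 1.86, 3.33 and 5.39 CPM in Cxcl9-high tumours, against 0.792, 1.97 and 2.45 CPM in Cxcl9-low tumours.

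**Figure D1:**
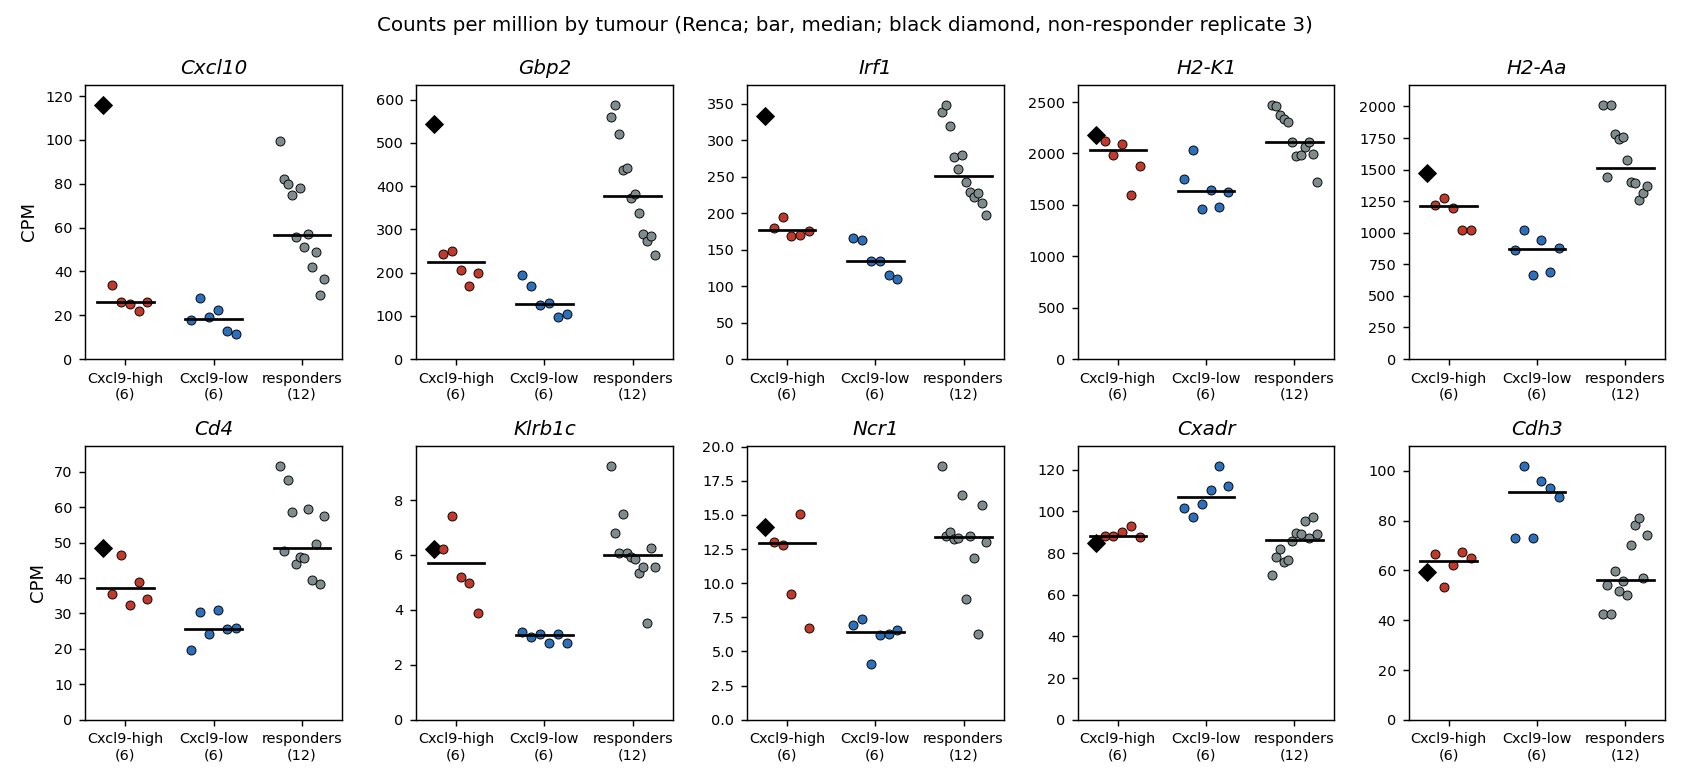
CPM of 10 named genes in each Renca tumour, with one linear axis from 0 per gene, for the 6 Cxcl9-high non-responders, the 6 Cxcl9-low non-responders and the 12 responders (points, tumours; bars, medians; black diamond, non-responder replicate 3). Replicate 3 stands apart from the other 5 Cxcl9-high tumours in Cxcl10, Gbp2 and Irf1 but lies among them in Klrb1c, Ncr1 and Cdh3.

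The signalling layer had modest differences. All 13 tested receptors, kinases and factors of the interferon pathway had positive log2 fold changes, 9 of them at an unadjusted p under 0.05, with a median of 0.20. Irf1, the first transcription factor that interferon gamma induces, had 168, 178 and 334 CPM in Cxcl9-high tumours, against 110.2, 134 and 166 CPM in Cxcl9-low tumours, and the sides did not overlap. Its log2 fold change of 0.62 ± 0.18 became 0.32 without replicate 3. Irf8, a factor of macrophages and dendritic cells, had 104, 122 and 154 CPM in Cxcl9-high tumours, against 75.8, 88.2 and 111 CPM in Cxcl9-low tumours, and its difference was 0.53 ± 0.11 (adjusted p = 0.06, DESeq2 0.000582). Irf7, which amplifies type I interferon, had 96.1, 148 and 254 CPM in Cxcl9-high tumours, against 94.7, 108 and 117 CPM in Cxcl9-low tumours.

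Interferon gamma targets shared one direction. All 23 tested type II targets had positive log2 fold changes, against 48.2% of all genes, and 22 stood at an unadjusted p under 0.05, against 10.7%. Their median was 1.03 with all tumours and 0.59 without replicate 3. DESeq2 called 16 of the 23 higher (3.8% of all genes), and 4 without replicate 3 (0.941%). The line on Cxcl9 called all 23 (5.49%), and 18 without replicate 3 (1.33%). Gbp4, a guanylate-binding protein that acts against intracellular microbes (GRCm38, chromosome 5, 105115767 to 105139586), had 128, 165 and 473 CPM in Cxcl9-high tumours, against 53.8, 81.8 and 124 CPM in Cxcl9-low tumours and a log2 fold change of 1.32 ± 0.32. Every high tumour exceeded every low one. Gbp2, of the same family, had 168, 225 and 544 CPM in Cxcl9-high tumours, against 98, 128 and 195 CPM in Cxcl9-low tumours, with 5 of 6 high tumours above the low range. Igtp, an immunity-related GTPase, had 178, 243 and 551 CPM in Cxcl9-high tumours, against 103, 132 and 205 CPM in Cxcl9-low tumours, and its difference of 1.02 ± 0.27 became 0.63 without replicate 3. For Serpina3g, a serine protease inhibitor, the levels were 52, 74.7 and 221 CPM in Cxcl9-high tumours, against 29.6, 40.3 and 54.7 CPM in Cxcl9-low tumours and the difference 1.36 ± 0.28 (adjusted p = 0.0602). Gbp8 had 38.6, 52.9 and 113 CPM in Cxcl9-high tumours, against 25.1, 27.7 and 42.3 CPM in Cxcl9-low tumours, though reads could have been divided between similar genes of this family.

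The promoters of 5 of these genes are shown because most of the targets share their interferon motifs. The bases are the 250 before an annotated start (RefSeq, GRCm38.p6), 5′ to 3′ on the gene's strand, with motif matches in capitals. Where a gene had several starts, the first with a motif was shown.
Cxcl10 (chr5:92348890-92349139, minus strand): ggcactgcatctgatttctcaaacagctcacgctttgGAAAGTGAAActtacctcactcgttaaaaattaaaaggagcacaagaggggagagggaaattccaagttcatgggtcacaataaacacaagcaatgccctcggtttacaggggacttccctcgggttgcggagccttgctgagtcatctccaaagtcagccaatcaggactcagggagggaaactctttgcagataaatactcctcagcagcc
Irf1 (chr11:53769764-53770013, plus strand): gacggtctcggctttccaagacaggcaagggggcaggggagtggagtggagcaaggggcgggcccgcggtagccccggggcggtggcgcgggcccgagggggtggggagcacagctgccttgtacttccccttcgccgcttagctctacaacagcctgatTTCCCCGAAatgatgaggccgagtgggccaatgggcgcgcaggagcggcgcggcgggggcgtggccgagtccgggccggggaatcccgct
Gbp2 (chr3:142620413-142620662, plus strand): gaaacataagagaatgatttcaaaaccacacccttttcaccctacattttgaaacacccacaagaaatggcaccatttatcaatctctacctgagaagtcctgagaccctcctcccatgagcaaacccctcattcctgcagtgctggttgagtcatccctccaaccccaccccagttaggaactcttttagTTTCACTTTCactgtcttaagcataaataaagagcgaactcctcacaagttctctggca
Igtp (chr11:58199306-58199555, plus strand): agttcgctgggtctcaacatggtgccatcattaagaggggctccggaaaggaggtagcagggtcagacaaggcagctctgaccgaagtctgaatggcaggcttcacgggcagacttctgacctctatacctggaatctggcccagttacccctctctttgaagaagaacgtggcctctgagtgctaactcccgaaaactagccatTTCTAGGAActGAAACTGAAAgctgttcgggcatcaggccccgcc
Serpina3g (chr12:104235897-104236146, plus strand): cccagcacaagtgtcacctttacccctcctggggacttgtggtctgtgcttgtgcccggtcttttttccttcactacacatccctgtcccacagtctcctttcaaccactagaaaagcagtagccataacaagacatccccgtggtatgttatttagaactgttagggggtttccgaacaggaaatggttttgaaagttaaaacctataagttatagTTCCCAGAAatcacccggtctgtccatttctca
The first motif searched was TTCNNNGAA, the gamma-activated site of interferon gamma signalling, which reads the same on both strands. The second was GAAA followed by any 2 bases and again GAAA, or on the other strand TTTC, any 2 bases and TTTC, an element of the kind that IRF factors bind. The windows searched ran from 250 bases before to 50 after each start, and a gene counted if any of its starts had a match. Irf1 and Serpina3g hold the first motif, Cxcl10 and Gbp2 the second, and Igtp both, without overlap. Of the 23 type II targets tested, 15 had a promoter in the table, and 13 of the 15 held one or both motifs (86.7%), 9 the first and 10 the second. Over the 27025 genes with a promoter in the table the shares were 9.55% and 3.99%, and 12.9% held either. Over the 10089 tested genes among them the shares were 8.5%, 4.03% and 11.9%. Type I targets held either motif in 11 of 15. Of the T cell genes 1 of 10 did, of the NK genes 1 of 13, of the regulatory T cell genes 3 of 9 and of the cytotoxic genes 4 of 8. A match describes letters and not a bound site.

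Interferon targets known for type I signalling had smaller values. All 24 tested were positive, 19 of them at an unadjusted p under 0.05, with a median of 0.46, and 0.27 without replicate 3. DESeq2 called 10, and 0 without replicate 3. Among the metabolic enzymes of activated macrophages, Acod1 and Ido1 were far higher in that tumour than in the others. Acod1, which makes itaconate, had 3.02, 3.45 and 27 CPM in Cxcl9-high tumours, against 0.924, 1.91 and 4.18 CPM in Cxcl9-low tumours. Replicate 3 alone held the 27 CPM, the next tumour of its side had 3.97, and the log2 fold change went with it (1.80 ± 0.62 with replicate 3, 0.49 without). Ido1, which breaks down tryptophan, had 0.674, 1.18 and 5.39 CPM in Cxcl9-high tumours, against 0.176, 0.681 and 1.47 CPM in Cxcl9-low tumours, and the values outside replicate 3 overlapped. Ass1, which remakes arginine from citrulline, had 21.4, 29.4 and 51.9 CPM in Cxcl9-high tumours, against 18, 20.6 and 27 CPM in Cxcl9-low tumours, with 5 of 6 high tumours above the low range.

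Antigen presentation showed small differences that many genes shared. Of 21 class I genes, 20 were positive and 20 stood at an unadjusted p under 0.05 higher, with a median of 0.38, and 0.28 without replicate 3. Nlrc5, the transactivator of class I genes, had 148, 183 and 253 CPM in Cxcl9-high tumours, against 112, 132 and 150.4 CPM in Cxcl9-low tumours and a log2 fold change of 0.57 ± 0.12 (adjusted p = 0.0602). Psmb10, an immunoproteasome subunit, had 75.1, 81.6 and 132 CPM in Cxcl9-high tumours, against 53, 59.9 and 70.7 CPM in Cxcl9-low tumours, without overlap. Tapbpl, a peptide-loading factor, had 46.1, 50.5 and 79.2 CPM in Cxcl9-high tumours, against 37, 40.3 and 43.4 CPM in Cxcl9-low tumours, also without overlap. The abundant heavy chain gene H2-K1 had 1597, 2035 and 2179.6 CPM in Cxcl9-high tumours, against 1456, 1632 and 2035 CPM in Cxcl9-low tumours, with 3 of 6 high tumours above the low range. B2m, the class I light chain, had 2579, 2999.6 and 3554 CPM in Cxcl9-high tumours, against 2304, 2592 and 2872 CPM in Cxcl9-low tumours, and its difference of 0.25 ± 0.089 overlapped between sides.

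Class II genes lay in the same direction. All 9 tested were positive and 8 stood at an unadjusted p under 0.05, with a median of 0.41, and 0.32 without replicate 3. H2-Aa, the alpha chain of the I-A molecule (GRCm38, chromosome 17, 34282744 to 34287823), had 1018, 1210.0 and 1475 CPM in Cxcl9-high tumours, against 662, 871 and 1025 CPM in Cxcl9-low tumours. Of the 6 high tumours 4 lay above the low range, and the difference was 0.60 ± 0.11 (adjusted p = 0.0516, DESeq2 8.61e-05), or 0.53 without replicate 3. H2-Ab1 and H2-Eb1, the beta chains, differed by 0.56 ± 0.12 and 0.59 ± 0.12.

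**Figure D2:**
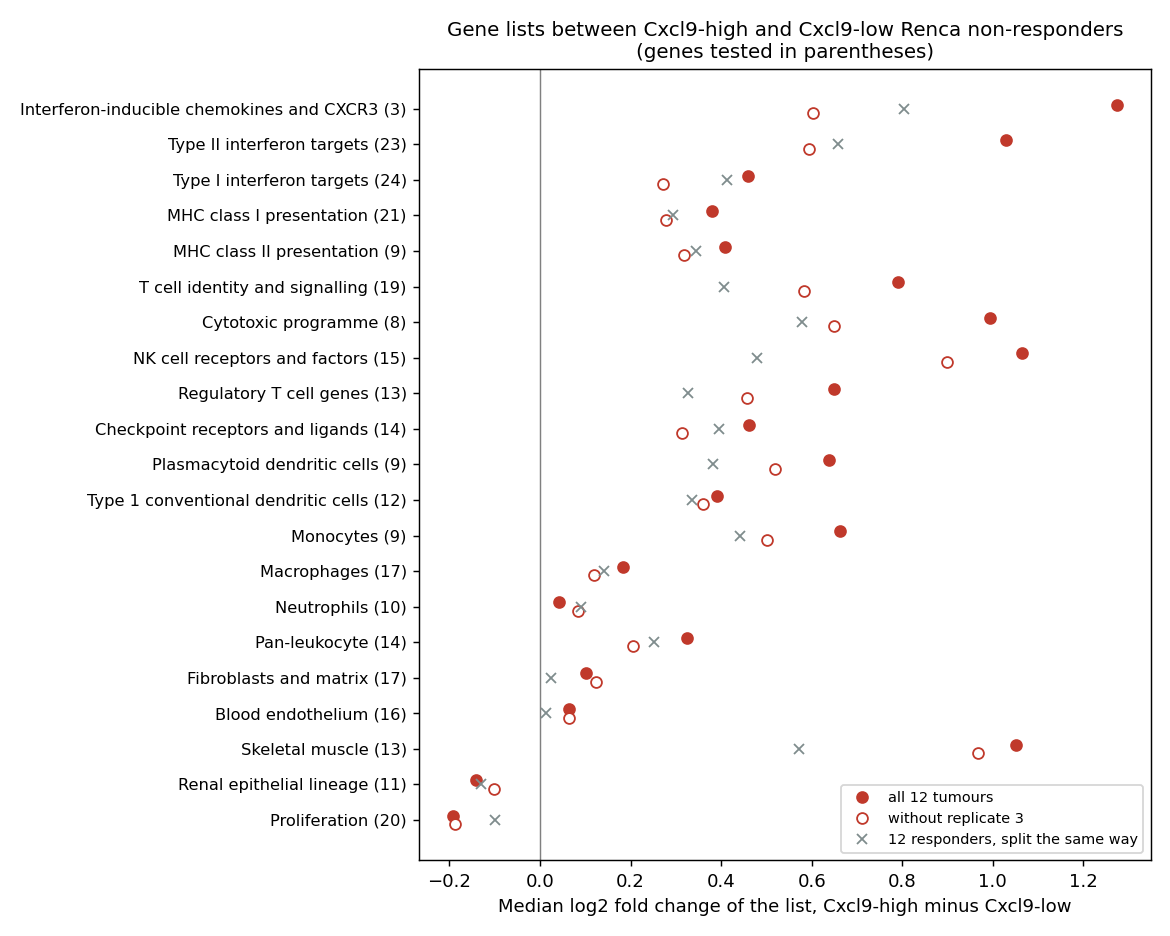
Median log2 fold change, Cxcl9-high minus Cxcl9-low, of 21 gene lists over the 12 Renca non-responders (filled), the 11 without replicate 3 (open) and the 12 Renca responders split in the same way (crosses). The type II interferon median of 1.03 becomes 0.59 without replicate 3, while the NK median of 1.06 becomes 0.90, and proliferation stays at -0.19.

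T cell genes were the other broad group. All 19 tested T cell genes were positive and all 19 stood at an unadjusted p under 0.05, with a median of 0.79, and 0.58 without replicate 3. DESeq2 called 14 of the 19 higher, and 2 without replicate 3. The line on Cxcl9 called 18, and 9 without replicate 3. Cd4, the helper T cell coreceptor that some macrophages and dendritic cells also carry (GRCm38, chromosome 6, 124864692 to 124888221), had 32.5, 37.1 and 48.6 CPM in Cxcl9-high tumours, against 19.6, 25.7 and 31 CPM in Cxcl9-low tumours, and the sides did not overlap. Its log2 fold change was 0.69 ± 0.12 (adjusted p = 0.0516), and 0.62 without replicate 3. Cd3e, a chain of the T cell receptor complex, had 12.5, 17 and 24.8 CPM in Cxcl9-high tumours, against 5.67, 11.2 and 15.2 CPM in Cxcl9-low tumours, with 4 of 6 high tumours above the low range. Cd8a, the coreceptor of cytotoxic T cells, had 17.7, 26.8 and 37.4 CPM in Cxcl9-high tumours, against 8.66, 12 and 26.3 CPM in Cxcl9-low tumours, and replicates 2 and 9 of the low side lay within the high range. Sh2d1a, the adaptor SAP, had 1.56, 2.05 and 3.44 CPM in Cxcl9-high tumours, against 0.704, 1.01 and 1.24 CPM in Cxcl9-low tumours, with no overlap at a low level. Cd7 had 8.25, 12 and 13.1 CPM in Cxcl9-high tumours, against 4.09, 6.29 and 8.48 CPM in Cxcl9-low tumours, and replicate 8 alone of the high side fell within the low range.

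NK cell genes had the highest median among the leukocyte lists, 1.06, and 0.90 without replicate 3. All 15 tested were positive and 14 stood at an unadjusted p under 0.05, and DESeq2 called 10, and 7 without replicate 3. Klrb1c, a lectin-like receptor gene of the NK complex (GRCm38, chromosome 6, 128778485 to 128789215), had 3.87, 5.71 and 7.4 CPM in Cxcl9-high tumours, against 2.78, 3.07 and 3.18 CPM in Cxcl9-low tumours, so that the lowest high tumour exceeded all low ones. Its difference was 0.94 ± 0.15, and 0.90 without replicate 3 (adjusted p = 0.0516, DESeq2 4.86e-05). Klrk1, the activating receptor NKG2D of NK and CD8 T cells, had 21.1, 29.6 and 43.7 CPM in Cxcl9-high tumours, against 12.5, 15.9 and 21 CPM in Cxcl9-low tumours, also without overlap. Ncr1, the receptor NKp46 found on NK cells and related innate lymphocytes, had 6.69, 12.9 and 15.1 CPM in Cxcl9-high tumours, against 4.11, 6.4 and 7.39 CPM in Cxcl9-low tumours, and replicate 8 was the one high tumour inside the low range. Txk, a kinase of T and NK cells, had 3.47, 5.85 and 7.66 CPM in Cxcl9-high tumours, against 2.37, 2.8 and 3.01 CPM in Cxcl9-low tumours without overlap, and Il18rap, a chain of the IL-18 receptor, had 25.6, 39.4 and 46.6 CPM in Cxcl9-high tumours, against 19.7, 24.1 and 26.7 CPM in Cxcl9-low tumours with a single tumour overlapping. Clec2d, a ligand of NK receptors, had the smallest p of all named genes, with 67.4, 71.8 and 76.4 CPM in Cxcl9-high tumours, against 56.2, 58.9 and 64.1 CPM in Cxcl9-low tumours and a difference of 0.32 ± 0.041 (unadjusted p = 4.49e-06, adjusted p = 0.0516).

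The cytotoxic programme had 8 positive genes of 8, 7 at an unadjusted p under 0.05 and a median of 0.99, or 0.65 without replicate 3. DESeq2 called 6 of the 8, and 0 without replicate 3. Nkg7, a granule protein of cytotoxic cells, had 10.2, 16.5 and 27.7 CPM in Cxcl9-high tumours, against 5.5, 8.45 and 13.4 CPM in Cxcl9-low tumours. Tbx21, the type 1 lymphocyte factor T-bet, had 2.61, 4.57 and 8.73 CPM in Cxcl9-high tumours, against 1.28, 2.22 and 3.36 CPM in Cxcl9-low tumours, and Cst7, an inhibitor of the proteases that activate granzymes, had 2.76, 4.82 and 7.15 CPM in Cxcl9-high tumours, against 1.8, 2.58 and 3.41 CPM in Cxcl9-low tumours. Each had 4 or 5 high tumours above the low range.

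Inhibitory and regulatory genes lay in the same direction. All 13 tested regulatory T cell genes were positive, 9 at an unadjusted p under 0.05, with a median of 0.65. Foxp3, the lineage factor of regulatory T cells, had 12.3, 18 and 25.4 CPM in Cxcl9-high tumours, against 7.04, 12.2 and 14.2 CPM in Cxcl9-low tumours. Ctla4, one target of the later treatment, had 14.2, 20.3 and 24 CPM in Cxcl9-high tumours, against 6.32, 11.1 and 15.6 CPM in Cxcl9-low tumours and a difference of 0.82 ± 0.22. Tnfrsf18, the costimulatory receptor GITR, had 9.96, 11.3 and 15.4 CPM in Cxcl9-high tumours, against 6.4, 8.2 and 9.28 CPM in Cxcl9-low tumours, and Izumo1r, the folate receptor 4 of these cells, had 6.73, 7 and 11.2 CPM in Cxcl9-high tumours, against 3.38, 5.14 and 5.78 CPM in Cxcl9-low tumours, both without overlap. Among 14 checkpoint genes 13 were positive, and 9 stood at an unadjusted p under 0.05 higher and 1 lower. The lower one was Pvr, a ligand of T and NK cell receptors, which was named after its values were seen, with 86.7, 109 and 118 CPM in Cxcl9-high tumours, against 112, 127 and 149 CPM in Cxcl9-low tumours and a difference of -0.26 ± 0.089. Lag3, an inhibitory receptor of T and NK cells, had 10.7, 13.2 and 15 CPM in Cxcl9-high tumours, against 5.5, 7.34 and 11.7 CPM in Cxcl9-low tumours, and its difference of 0.77 ± 0.17 was the same without replicate 3 (0.77). Pdcd1, which encodes PD-1, had 6.54, 9.36 and 16.2 CPM in Cxcl9-high tumours, against 3.46, 5.93 and 9.97 CPM in Cxcl9-low tumours, with 2 of 6 high tumours above the low range. Cd274, which encodes PD-L1, had 97.4, 110.1 and 168 CPM in Cxcl9-high tumours, against 89.5, 93.5 and 107 CPM in Cxcl9-low tumours, and its difference of 0.35 ± 0.12 became 0.13 without replicate 3. For Tnfrsf14, the HVEM receptor, the levels were 13.2, 17.2 and 24.9 CPM in Cxcl9-high tumours, against 9.37, 12.1 and 13.4 CPM in Cxcl9-low tumours.

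Plasmacytoid and type 1 conventional dendritic cell genes and monocyte genes had higher medians than mature dendritic cell and macrophage genes. Of 9 plasmacytoid dendritic cell genes 7 stood at an unadjusted p under 0.05 higher, with a median of 0.64, or 0.52 without replicate 3. Siglech, a surface lectin of these cells, had 17.3, 22.1 and 28.1 CPM in Cxcl9-high tumours, against 12.9, 14.7 and 17.1 CPM in Cxcl9-low tumours, with no overlap and a difference of 0.67 ± 0.11, or 0.70 without replicate 3. Klk1, a kallikrein of the same list, had 5.43, 7.88 and 11.6 CPM in Cxcl9-high tumours, against 4.01, 5.13 and 6.21 CPM in Cxcl9-low tumours, and Ccr9 had 6.94, 10.7 and 12 CPM in Cxcl9-high tumours, against 6.08, 6.61 and 7.91 CPM in Cxcl9-low tumours. Type 1 conventional dendritic cell genes had 9 of 12 at that level and a median of 0.39. Batf3, their factor, had 3.92, 5.66 and 7.48 CPM in Cxcl9-high tumours, against 3.13, 3.94 and 5.02 CPM in Cxcl9-low tumours, and Xcr1, their chemokine receptor, had 10.4, 15.5 and 21.4 CPM in Cxcl9-high tumours, against 8.61, 9.91 and 18.8 CPM in Cxcl9-low tumours, with 2 of 6 high tumours above the low range. Of 10 mature dendritic cell genes 6 were positive, with 1 at that level higher, 1 lower and a median of 0.10. The lower one was Ccl17, a T cell chemokine, with 5.81, 9.32 and 12 CPM in Cxcl9-high tumours, against 7.9, 18.3 and 31.4 CPM in Cxcl9-low tumours. Monocyte genes had 6 of 9 and a median of 0.66. Plac8 had 40.2, 48.4 and 63.1 CPM in Cxcl9-high tumours, against 28.9, 33.4 and 36.3 CPM in Cxcl9-low tumours, without overlap. Ly6c2, the marker of inflammatory monocytes, had 44.3, 64.5 and 107 CPM in Cxcl9-high tumours, against 28.6, 32.8 and 49.5 CPM in Cxcl9-low tumours. Of 17 macrophage genes 5 stood at that level, with a median of 0.18. C1qb, a complement subunit that macrophages make, had 471, 547 and 667 CPM in Cxcl9-high tumours, against 448, 472 and 481 CPM in Cxcl9-low tumours. Neutrophil genes had 3 of 10 higher and 1 lower, and Csf3r, the G-CSF receptor, had 37.8, 49.5 and 59.6 CPM in Cxcl9-high tumours, against 33.2, 38.4 and 47.2 CPM in Cxcl9-low tumours. The defining neutrophil genes S100a8 and S100a9 were near 0, at most 1.95 and 2.79 CPM on the high side. The B cell surface gene Ms4a1 (CD20) was near 0 as well, at most 0.872 CPM on the high side and 0.583 CPM on the low side.

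General leukocyte RNA also differed. The summed level of 14 pan-leukocyte genes was 2113, 2365 and 2868 CPM in Cxcl9-high tumours, against 1843, 2022 and 2201 CPM in Cxcl9-low tumours, and 12 of the 14 stood at an unadjusted p under 0.05 higher (median 0.32). With the pan-leukocyte level as a covariate, 1007 genes stood at an unadjusted p under 0.05 and 0 passed (smallest adjusted p 0.764). In that fit the difference of Klrb1c was 0.69, of Siglech 0.66 and of Gbp4 0.46, and that of Cd3e was -0.0057. Skeletal muscle RNA had a higher median on the high side, with wide overlap between the sides. Its summed level of 13 genes was 439.9, 1399.7 and 2179.9 CPM in Cxcl9-high tumours, against 125, 719 and 1407 CPM in Cxcl9-low tumours, 13 of 13 were positive and 1 stood at an unadjusted p under 0.05, and the part of muscle tissue in the other differences was not tested. Fibroblast and blood endothelial lists had medians of 0.10 and 0.065. Vcam1, an adhesion molecule of activated endothelium and stroma, had 38.2, 94 and 162 CPM in Cxcl9-high tumours, against 45, 52.9 and 87.8 CPM in Cxcl9-low tumours. Lymphatic endothelial genes were mixed. Of 6 tested, 4 were positive and 2 negative, with 3 at an unadjusted p under 0.05 higher and 1 lower. The summed level of the list had medians of 301.6 CPM in Cxcl9-high tumours and 328 CPM in Cxcl9-low tumours. Prox1 and Mmrn1 of this list were low. Prox1 had 0.334, 0.698 and 1.14 CPM in Cxcl9-high tumours, against 0.176, 0.332 and 0.564 CPM in Cxcl9-low tumours. Mmrn1 had 0.334, 1.04 and 2.8 CPM in Cxcl9-high tumours, against 0.132, 0.342 and 0.918 CPM in Cxcl9-low tumours. Their differences of 1.29 ± 0.34 and 1.74 ± 0.56 rest on few counts.

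**Figure D3:**
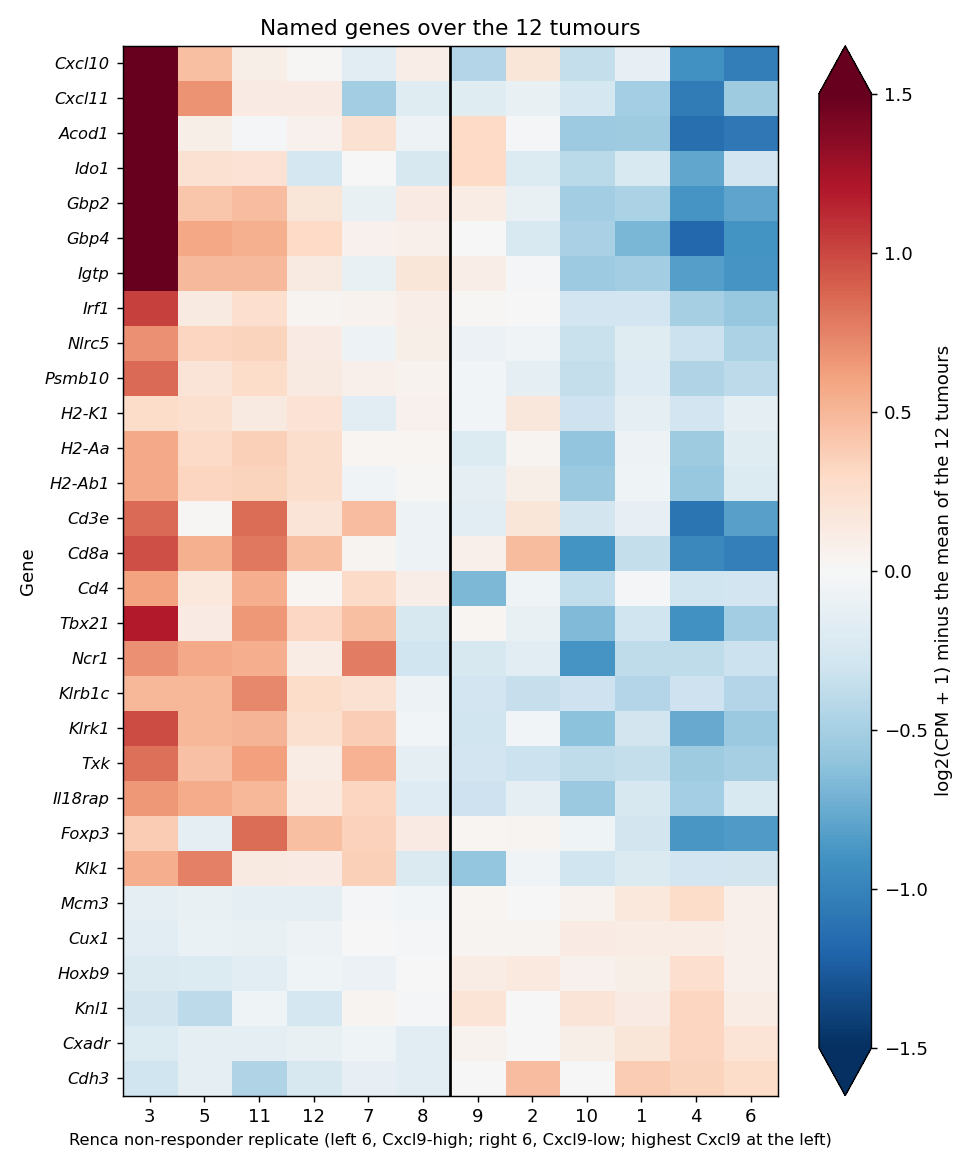
Named genes (rows) over the 12 Renca non-responders (columns, in order of Cxcl9 from the highest at the left; the line separates Cxcl9-high from Cxcl9-low), as log2(CPM + 1) minus the gene's mean over the 12 tumours, with colours ending at 1.5 either way. Interferon genes at the top are darkest in replicate 3, lymphocyte genes are spread over replicates 3, 5, 11, 12 and 7, replicate 8 lies near the mean, and the epithelial and division genes at the bottom have higher levels on the low side.

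Division and renal epithelial genes had higher levels on the Cxcl9-low side. All 20 proliferation genes had negative log2 fold changes, 15 of them at an unadjusted p under 0.05 (9.23% of all genes), with a median of -0.19 with and -0.19 without replicate 3. DESeq2 called 4 of the 20 lower (1.71%), and 0 without replicate 3 (0.348%). Mcm3, a subunit of the replicative helicase, had 169.5, 173 and 185 CPM in Cxcl9-high tumours, against 188, 197 and 228 CPM in Cxcl9-low tumours, without overlap. Mki67, the division marker, had 239, 265 and 330.1 CPM in Cxcl9-high tumours, against 274, 305 and 357 CPM in Cxcl9-low tumours, with overlap. Of 11 renal epithelial genes 10 were negative, 4 at that level, with a median of -0.14.

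The named genes of smallest p on the low side included junction proteins and homeobox factors. Cdh3, P-cadherin (GRCm38, chromosome 8, 106510891 to 106557297), had 53.4, 63.7 and 67.4 CPM in Cxcl9-high tumours, against 73, 91.4 and 102 CPM in Cxcl9-low tumours, without overlap and with a difference of -0.41 ± 0.075 (adjusted p = 0.0516). Cxadr, a junction protein of epithelia, had 84.7, 88.2 and 93.2 CPM in Cxcl9-high tumours, against 97.2, 107 and 122 CPM in Cxcl9-low tumours, and its difference was -0.26 ± 0.05. Hoxb9, a patterning factor, had 75.8, 80.9 and 87.9 CPM in Cxcl9-high tumours, against 91.9, 94.5 and 106 CPM in Cxcl9-low tumours, and Cux1, a homeobox factor, had 163, 172 and 182 CPM in Cxcl9-high tumours, against 189, 196 and 199 CPM in Cxcl9-low tumours, both without overlap. Phldb2, an adhesion-site protein, Micall2, a junction-trafficking protein, Nhsl1 and Plekhh3 also did not overlap, with differences of -0.31 ± 0.06, -0.24 ± 0.042, -0.22 ± 0.042 and -0.24 ± 0.04. Knl1, a kinetochore scaffold, and Stard4, a sterol carrier, differed by -0.38 ± 0.071 and -0.27 ± 0.05, with 5 of 6 high tumours below the low range in each. Vegfa, the vessel growth factor, had 150.0, 159 and 163 CPM in Cxcl9-high tumours, against 179, 186 and 239 CPM in Cxcl9-low tumours, and its receptor gene Flt1 had 51.8, 53.6 and 56.2 CPM in Cxcl9-high tumours, against 55, 65.1 and 67.2 CPM in Cxcl9-low tumours. Lif, a cytokine of the IL-6 family, had 9.7, 13.8 and 16.5 CPM in Cxcl9-high tumours, against 17.6, 19.8 and 22.6 CPM in Cxcl9-low tumours, without overlap, and its difference of -0.60 ± 0.12 was -0.70 without replicate 3. Pax5, a B cell factor by its usual role, had 18.4, 21.9 and 23.8 CPM in Cxcl9-high tumours, against 24.3, 25.9 and 32.7 CPM in Cxcl9-low tumours in these tumours, where Ms4a1 was below 1 CPM. The remaining named genes of smallest p on the high side were Ctsh, a lysosomal cathepsin, with 160.4, 176 and 184 CPM in Cxcl9-high tumours, against 132, 144 and 148 CPM in Cxcl9-low tumours, Tspan33, a tetraspanin, with 8.85, 10.4 and 12.5 CPM in Cxcl9-high tumours, against 6.66, 7.04 and 9.19 CPM in Cxcl9-low tumours, and Dnase1l1, a nuclease, with 54.2, 54.5 and 55.3 CPM in Cxcl9-high tumours, against 41.9, 46.1 and 47.3 CPM in Cxcl9-low tumours.

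Whether the same genes go with Cxcl9 in other mice was asked by ranking the 12 Renca responders in the same way, 6 against 6. None of these libraries took part in choosing the sides above. In that split 599 of 15449 genes passed (3.88%), 344 higher (2.23%) and 255 lower (1.65%), by the same edgeR test. Type II interferon targets rose in 21 of 23 on the Cxcl9-high side of the responders, with a median of 0.66. Class I genes rose in 13 of 21, class II genes in 6 of 9 and cytotoxic genes in 4 of 8. T cell genes rose in 3 of 19 and NK genes in 3 of 15, and no gene of these lists fell. These counts are at an adjusted p under 0.05, where 0 genes were called in the non-responders. At an unadjusted p under 0.05, 13 of 19 T cell genes and 9 of 15 NK genes were higher among responders. Their medians there were 0.41 and 0.48. Gbp4 rose by 0.85 (adjusted p = 0.0158), Serpina3g by 0.91 (adjusted p = 0.0151) and Cxcl10 by 0.80 (adjusted p = 0.0335). Values of the NK genes were smaller there, 0.35 for Klrb1c (adjusted p = 0.196) and 0.33 for Ncr1 (adjusted p = 0.367). The step in Cxcl9 between the sides was smaller there as well. Of the 341 genes that rose among responders and were tested in the non-responders, 337 (98.83%) had the same sign in the non-responders, against 48.2% of all genes, and 324 without replicate 3. Their median in the non-responders was 0.34, and 0.24 without replicate 3. Of 255 that fell, 241 had the same sign. DESeq2 called 1 gene, a lower one, for the difference between the 2 splits. By edgeR that difference passed in 0 of 16015 genes (0%; 710 at an unadjusted p under 0.05, 4.43%). The edgeR test therefore showed no gene to go with Cxcl9 differently in non-responders and responders. For Klrb1c that difference was 0.52 ± 0.20 (adjusted p = 0.955).

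**Figure D4:**
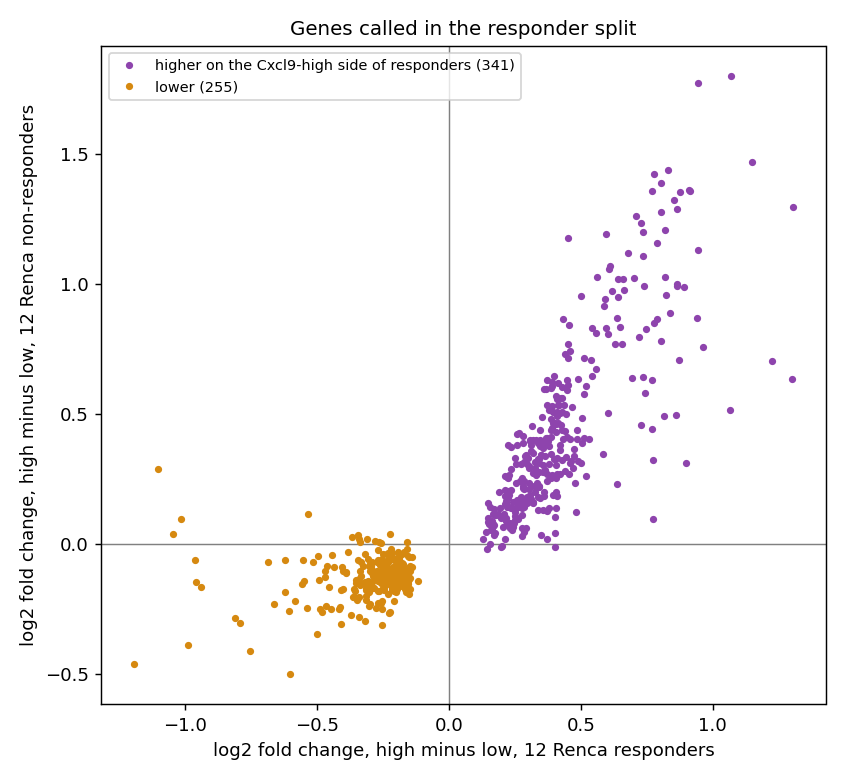
Log2 fold changes, Cxcl9-high minus Cxcl9-low, of the genes that passed in the 12 Renca responders (horizontal) against the same genes in the 12 Renca non-responders (vertical), from separate libraries. Same-numbered libraries of both groups shared a lane and flow cell. Of the 341 genes higher in responders 337 lie above 0 on the vertical axis, and of the 255 lower ones 241 lie below it.

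The last split used the 12 AB1 non-responders, a tumour of other origin. There 725 of 15449 genes passed (4.69%), 544 higher (3.52%) and 181 lower (1.17%). The step in Cxcl9 between the sides was widest in this split, smaller in the Renca non-responders and smallest in the Renca responders. Log2 fold changes were not scaled to that step. Type II targets passed as higher in 22 of 23, with a median of 2.17. T cell and NK genes passed in 0 of 19 and 0 of 16, and none had passed in the Renca non-responders either. At an unadjusted p under 0.05, 10 of 19 T cell and 7 of 16 NK genes were higher, with medians of 1.02 and 1.14. The Renca difference minus the AB1 difference passed in 401 of 16578 genes (2.42%), 149 higher and 252 lower, and in 3 without the flow cell term. Cd274 was among them. Its values were 0.35 in Renca and 2.38 in AB1, and the difference was -2.03 ± 0.35 (adjusted p = 0.00385). Lif was -0.60 in Renca and 0.67 in AB1, with a difference of -1.27 ± 0.21 (adjusted p = 0.00258). The epithelial genes Cdh3, Cldn3 and Crb3 also passed, but AB1 holds almost none of them, with a median Cdh3 of 0.272 CPM on its high side against 0.17 CPM on its low side, and a single AB1 tumour at 18.3 CPM.

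Each side was then set against the 12 Renca responders. Both comparisons share the responders, so their values are given side by side only. The sides were chosen by Cxcl9 and the responders were not. That choice by itself favours lower levels, on the low side, of genes that go with Cxcl9. It equally favours higher levels of these genes on the high side, towards the levels of the responders. The Cxcl9-low non-responders differed from responders in 4227 of 16015 genes (26.4%), 1797 higher (11.2%) and 2430 lower (15.2%). Type II targets fell in 23 of 23, T cell genes in 19 of 19, NK genes in 15 of 15, class I genes in 20 of 21 and class II genes in 9 of 9. The Cxcl9-high non-responders differed in 0 genes by edgeR (0%; 2288 at an unadjusted p under 0.05, 14.3%), and in 53 by DESeq2. The smallest adjusted p by edgeR was 0.0641. Only replicate 3, the side's highest in Cxcl9, was left out as a check, so dependence on other tumours was not tested. Without replicate 3, 686 genes passed, 204 higher (1.27%) and 482 lower (2.99%). Type II targets were lower in 23 of 23, class I genes in 14 of 21 and class II genes in 8 of 9. T cell genes were lower in 10 of 19 and NK genes in 4 of 15. Each non-responder had a responder of the same number on its lane. With the replicate as a block the low side differed in 975 genes (6.09%), 256 higher (1.6%) and 719 lower (4.49%), and the high side in 0. In the blocked fit of the low side type II targets fell in 18 of 23, T cell genes in 18 of 19 and NK genes in 12 of 15.

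**Figure D5:**
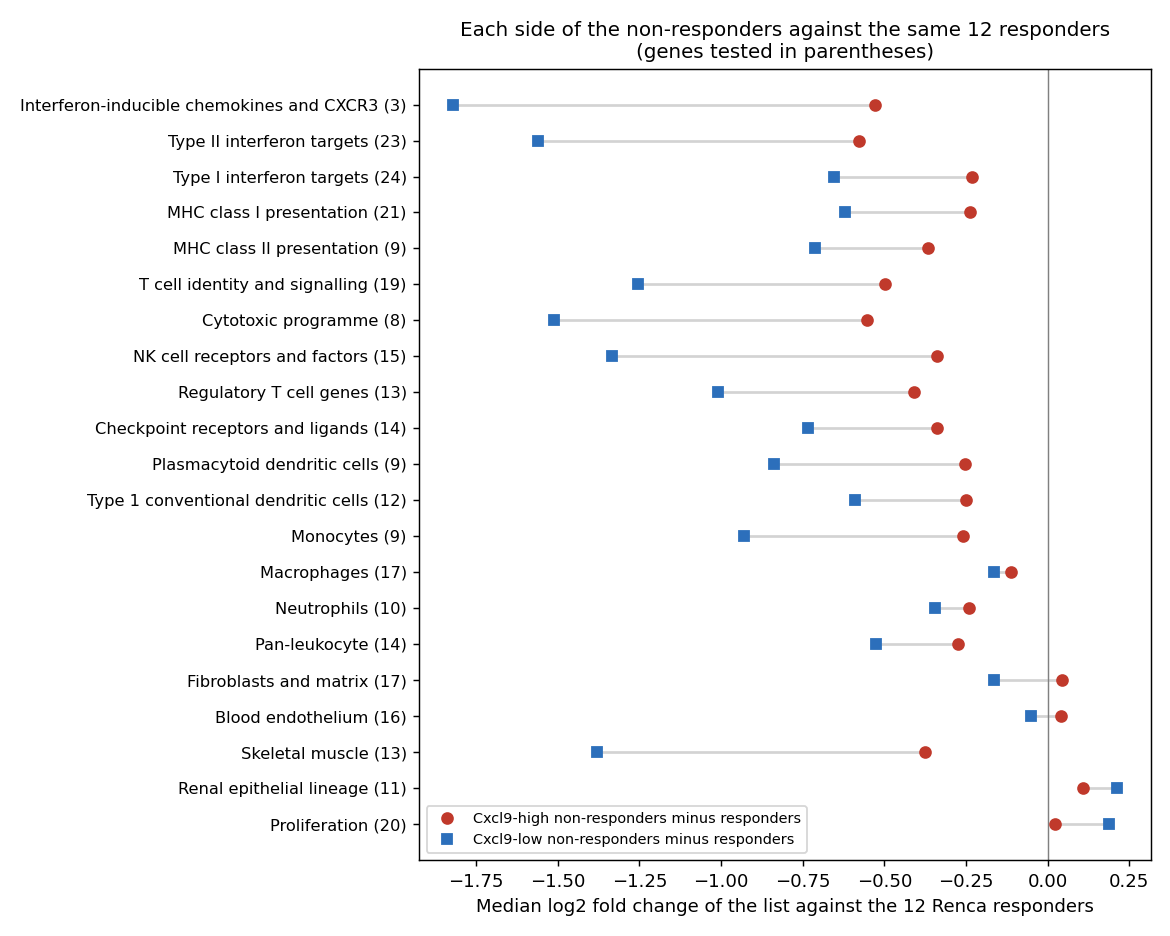
Median log2 fold change of 21 gene lists against the same 12 Renca responders, for the 6 Cxcl9-high non-responders (circles) and the 6 Cxcl9-low non-responders (squares). The type II interferon median is -0.58 for the high side and -1.56 for the low side, and the NK median -0.34 and -1.33.

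For Klrb1c and Ncr1 the medians of the high side lay near those of the responders, and for Klrk1 they did not. Klrb1c had a median of 5.71 CPM in Cxcl9-high non-responders, 3.07 CPM in Cxcl9-low non-responders and 6.01 CPM in responders. Ncr1 had 12.9, 6.4 and 13.4 CPM in the same order of groups, and Klrk1 had 29.6, 15.9 and 41.4 CPM. Against responders Klrk1 on the high side had an adjusted p of 0.221, and without replicate 3 a log2 difference of -0.73 (adjusted p = 0.0279). The log2 difference from responders was -0.16 ± 0.14 for Klrb1c on the high side (adjusted p = 0.655), and it fell by 1.06 on the low side (adjusted p = 0.000132). Gbp4 had medians of 165, 81.8 and 305 CPM, and the high side differed from responders by -0.65 (adjusted p = 0.313), or -1.16 without replicate 3 (adjusted p = 0.0149). Pdcd1 had medians of 9.36, 5.93 and 21.2 CPM, a difference of -1.23 ± 0.28 on the high side (adjusted p = 0.215) and -1.79 ± 0.29 on the low side (adjusted p = 0.000204). Without replicate 3 the high side's Pdcd1 difference was -1.49 (adjusted p = 0.0139), and that of Lag3 -0.78 (adjusted p = 0.0332). Cdh3, with medians of 63.7, 91.4 and 56.3 CPM, differed from responders by 0.11 on the high side (adjusted p = 0.628) and rose by 0.46 on the low side (adjusted p = 0.000565).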

How the data were processed

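Counts per gene were deposited by the authors as 1 table of raw counts, 39637 mouse genes in 48 libraries, not normalized. Tools listed in the submitters' processing notes are StringTie 1.3.0, HISAT2 2.0.4 and bcl2fastq 2.18.0.12, with no role. The builds listed are human (hg19, GRCh37), while the identifiers are mouse. How reads were counted, on which mouse build and with which strand setting is not given in the sources used here. Coordinates are those of GENCODE M21 (GRCm38) for the 39461 identifiers that matched. Of 527 genes in the lists, 51 are not analysed here because no row carries their symbol.

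CPM are counts divided by the sum of the table's column. Tests used edgeR 4.0.16 in R 4.3.3 (TMM scaling, filterByExpr, quasi-likelihood F test, flow cell as a term, Benjamini-Hochberg adjustment at 0.05), with Cxcl9 left out of the tested genes. A standard error is the log2 fold change divided by the square root of F. DESeq2 1.42.0 was an alternative. The fits were also run on simulated counts of independent genes with known changes, a simpler setting than these data. The smallest chi-square per gene between any 2 of the 12 libraries was 7.38, so none was a repeat of another. Same-numbered Renca responders and non-responders shared a lane and flow cell per the labels, and their deviations from the group means correlated from -0.289 to 0.232. Each library is a separate mouse.

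The members and the 36 gene lists were chosen with earlier results of these data known, so list counts are descriptions. Named genes were the 10 of smallest p in each direction whose mean log2 CPM reached 1, the 3 of smallest p in each list, a panel of immune genes and the 5 of smallest p in each direction of the differences between splits, without Gm, Rik and receptor-segment symbols. The text uses part of these 163 genes, and some are not reported here.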

Additional observations from a re-analysis of the deposited data

Results flagged for a closer look

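One tumour, replicate 3 of the Cxcl9-high side, stood apart from its 5 neighbours in many genes. In CPM, with the next tumour of the side after each, Cxcl10 was at 116 and 33.8, Cxcl11 at 31.8 and 8.74, Ccl5 at 92.4 and 48.7, and Cd274 at 168 and 117. Irf1 was at 334 in replicate 3 and 195 in the next tumour, Gbp2 at 544 and 251, Gbp4 at 473 and 185, Gbp8 at 113 and 62.6, and Igtp at 551 and 269. The enzymes Ido1, Acod1 and Ass1 were at 5.39, 27 and 51.9 CPM there, and at 1.35, 3.97 and 32.1 CPM in the next tumour. Psmb10 was at 132 and 88.4, and Tapbpl at 79.2 and 56.5. Of 172 sides of 6 tumours examined by the gap of the outermost tumour (Dixon's criterion), 20 had one, 14 of them replicate 3. The criterion's rate of 5% cannot be set against this count. Replicate 3 was far the highest in Cxcl9, and many of these genes were named because they go with the Cxcl9 sides. The genes were read in the same libraries and are not independent of each other.

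The other 6 gaps were spread over 5 tumours. On the high side, replicate 8 was lowest in Cd7 (8.25 CPM, next 11.7) and Ccr9 (6.94, next 10.3), and replicate 7 was at 55.3 CPM of Dnase1l1, next 54.6, within a narrow range. On the low side, replicate 10 was lowest in Ncr1 (4.11 CPM, next 6.23), replicate 2 highest in Ccr9 (7.91, next 6.73) and replicate 4 highest in Vegfa (239, next 196).

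The Cxcl9-high minus Cxcl9-low difference was not the same in Renca and AB1 non-responders for 401 genes by edgeR's test of the difference itself. Among the named genes it was -2.03 for Cd274, -1.27 for Lif and -6.13 for Cdh3 on the log2 scale. The Cdh3 value rests on 1 AB1 tumour. The step in Cxcl9 between the sides was wider in AB1, and these values were not scaled to it.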

How the results depend on the processing

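Between the sides 0 genes were called, and the count became 850 with DESeq2 (200 without replicate 3), 142 with no filter on low counts, 113 with no flow cell term, 252 for the 4 highest against the 4 lowest, 3 in flow cell 2 alone, 1262 for the line on Cxcl9 (231 without replicate 3) and 0 to 209 when 1 tumour was left out. It stayed 0 with RLE scaling, RNA purity terms, the pan-leukocyte term, flow cell 1 alone, a spread shared with responders, and the replicate block with responders added. Genes at an unadjusted p under 0.05 numbered 3080 of 15439 in the main fit. They numbered 1203 with RNA purity terms, 1007 with the pan-leukocyte term and 578 of 16015 with the block. Ranking by TMM-scaled CPM gave the same sides. DESeq2 gave 1273 genes in the responder split, 2264 in the AB1 split, 1 for the difference from responders, 686 for that from AB1 (3 with no flow cell term) and 53 for the high side against responders (686 with edgeR without replicate 3). With the replicate block the low side against responders gave 975. The cause of these shifts was not tested.

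Of the 82 named genes, under all alternatives, direction changed in 7 values. These were -0.054 (Acod1), -0.24 (Ido1), -0.0057 (Cd3e) and -0.076 (Csf3r) with the pan-leukocyte term, -0.077 (Ido1) in flow cell 2 alone, and -0.0047 (C1qb) and -0.018 (Cd274) with the replicate block and responders. With 0 genes called in the main fit, the block had no call to remove, and its smallest adjusted p by edgeR was 0.988. With libraries of about 20 M counts, genes under about 1 CPM rest on few reads.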
